A study of Mus musculus with 26 samples.

Results

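Fatty acid oxidation genes are described here in the mouse left ventricle: 34 genes, chosen by symbol from a list of the enzymes, carriers and control proteins that bring a fatty acid into the mitochondrion and shorten it there. All 34 were found among the 15249 genes of the deposited count table, and all 34 passed the filter on low counts. The libraries are bulk, ribosomal-RNA-depleted RNA-seq of left ventricle from C57BL6 mice, in 4 groups. The wt group (6 libraries) is wild type. MstTg (7 libraries) overexpresses Mst-1, a pro-apoptotic kinase of the Hippo pathway encoded by Stk4, and is used as a model of dilated cardiomyopathy. Gal3Ko (8 libraries) lacks galectin-3, a secreted lectin encoded by Lgals3, and Mst1Gal3 (5 libraries) carries both changes. The sources used here do not give the promoter of the transgene or the age and sex of the mice. The labels number replicates within a group and do not say that each is a separate mouse, so a p-value speaks only of the spread among these samples, which may in part be technical.

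The adult heart takes most of its ATP from fatty acids. A fatty acid is activated to an acyl-CoA by an acyl-CoA synthetase, handed to carnitine by carnitine palmitoyltransferase at the outer membrane, carried inward and handed back to CoA. Each turn of beta-oxidation in the matrix is a dehydrogenation, a hydration, another dehydrogenation and a thiolysis, with enzymes of overlapping preference for long, medium and short chains, and unsaturated chains need extra isomerases and a reductase. Many of the genes are known targets of the nuclear receptors PPARα and ERRα with their coactivator PGC-1α. A fall of the program is a textbook feature of the failing heart.

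Library totals were 18580405 to 32663735 counts. Stk4 had 22011 to 31877 counts in the MstTg libraries and 19919 to 28364 in the Mst1Gal3 libraries, where wt had 454 to 692 and Gal3Ko 388 to 718. Lgals3 had 1126 to 1791 counts in MstTg and 64 to 151 in Mst1Gal3. Outside the Mst-1 background its counts did not tell the groups apart, at 19 to 49 in wt and 22 to 64 in Gal3Ko, so the label of the libraries labelled Gal3Ko has no check in this gene. Genes of the mitochondrial genome took 29.2 to 35.5% of counts in wt, 26.8 to 38.3% in Gal3Ko, 14.4 to 23.3% in MstTg and 15.7 to 23.0% in Mst1Gal3. Cardiomyocyte markers were all present (11 of 11), which fits the labelled tissue. Of 4 atrial markers 3 were measured, and they summed to over 30 CPM (counts scaled to library size with TMM factors) in 6 of the 26 libraries, spread over all 4 groups.

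Promoter windows of RefSeq (GRCm38.p6, 250 bases before to 50 after the start) were matched for 29 of the 34 genes. Crat, Cpt1b, Decr1, Acot13 and Acaa2 had no window. The first sequence shown is the 85 bases between the divergent genes Hadha and Hadhb, which encode both subunits of 1 enzyme and are compared further down. It lies at chr5:30155163-30155247 on the plus strand of GRCm38, in no annotated exon, and capitals mark GC boxes (GGGCGG).
Hadha-Hadhb interval: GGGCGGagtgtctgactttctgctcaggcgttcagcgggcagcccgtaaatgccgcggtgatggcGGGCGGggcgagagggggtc
The next 4 are stretches upstream of the RefSeq start that hold AGGTCA, the core hexamer of PPAR and ERR elements, on either strand (capitals). They come from 1 long-chain enzyme and 1 short-chain enzyme whose transcripts fell with Mst-1, and from Cpt1a and Ucp3, whose levels went up and down together between libraries. A stretch of Acadm and a further one of Ucp3, with the hexamer 44 bases before the start, were also found and are not printed. Positions are chr11:70015496-70015529 (minus strand) for Acadvl, chr7:140116485-140116518 (minus) for Echs1, chr19:3323193-3323226 (plus) for Cpt1a and chr7:100472828-100472861 (plus) for Ucp3. None overlaps an exon of GENCODE M21, and that of Cpt1a lies in an intron of a transcript of the gene that starts further upstream.
Acadvl upstream: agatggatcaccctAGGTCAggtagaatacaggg
Echs1 upstream: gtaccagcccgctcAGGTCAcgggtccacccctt
Cpt1a upstream: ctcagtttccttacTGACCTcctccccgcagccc
Ucp3 upstream: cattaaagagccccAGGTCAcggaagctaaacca
AGGTCA was present in the windows of 6 of 29 members (20.7%: Acacb, Acadm, Acadvl, Cpt1a, Echs1 and Ucp3), against 15.1% of 10500 genes of the table with a window. A full PPAR element, searched as a direct repeat of the hexamer with 1 base between the copies, was in 0 of 29 members and 0.0381% of the 10500 genes, and the ERR element TNAAGGTCA in 0 of 29 and 0.933%. GGGCGG was in 21 of 29 (72.4%) and 67.3%, the palindromic NRF1 element in 1 of 29 (Etfdh, 3.45%) and 2.18%, and the TEAD element GGAATG in 4 of 29 (13.8%) and 14.7%. Both strands were searched, the full elements contain the hexamer and so overlap it, and a match or its absence describes the letters of these windows only.

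With Mst-1 overexpression most of the program was lower. In MstTg against wt 30 of the 34 genes fell, 1 rose (Acsl5) and 3 did not pass the test (Acsl3, Acsl4 and Cpt1a), by edgeR's quasi-likelihood test at an adjusted p under 0.05 (Benjamini-Hochberg, all tested genes). Over all tested genes 26.8% fell and 28.2% rose. The median change of the 34 was -1.25 on the log2 scale, against 0.02 over all genes, and the largest adjusted p among the 30 falls was 0.0075 (edgeR, Ucp3). In what follows ± is the SE beside a log2 change and the SD over libraries beside a level in CPM. The 30 genes that fell stood in MstTg at 22.7 to 78.2% of their wt level, with a median of 40.8%. In 28 of the 34 every MstTg library was below every wt library and in 1 above, which holds for 16.2% and 15.9% of all genes. Together the 34 transcripts took 1.38 to 1.67% of the counts outside the mitochondrial genome in wt and 0.544 to 0.606% in MstTg, so the groups did not overlap. In bulk tissue fewer cells of a type and less RNA per cell cannot be told apart.

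Markers of cell types moved in the same comparison. Of 11 cardiomyocyte markers 8 were lower and 2 higher in MstTg, with a median of -0.66, and their summed level was 56358 to 60997 CPM in wt and 40070 to 54214 CPM in MstTg. All 7 fibroblast markers were higher, with a median of 1.24 and sums of 653 to 858 CPM in wt and 2107 to 2585 CPM in MstTg. Of 6 endothelial markers 5 were lower. Of 6 smooth muscle and pericyte markers and of 6 macrophage markers, 1 each was higher and 1 lower, and no red blood cell marker (of 5), atrial marker (of 3 measured) or adipocyte marker (2 of 7 measured) passed the test. The adipocyte genes Adipoq, Plin1 and Ucp1 were not among the genes of the table. When libraries were scaled to the 11 cardiomyocyte markers in place of all genes, an alternative added after the data were seen, 28 of the 34 genes were still lower, with a median of -0.81. Over all genes that scaling called 9.33% lower and 68.2% higher, with a median of 0.47.

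**Figure D1:**
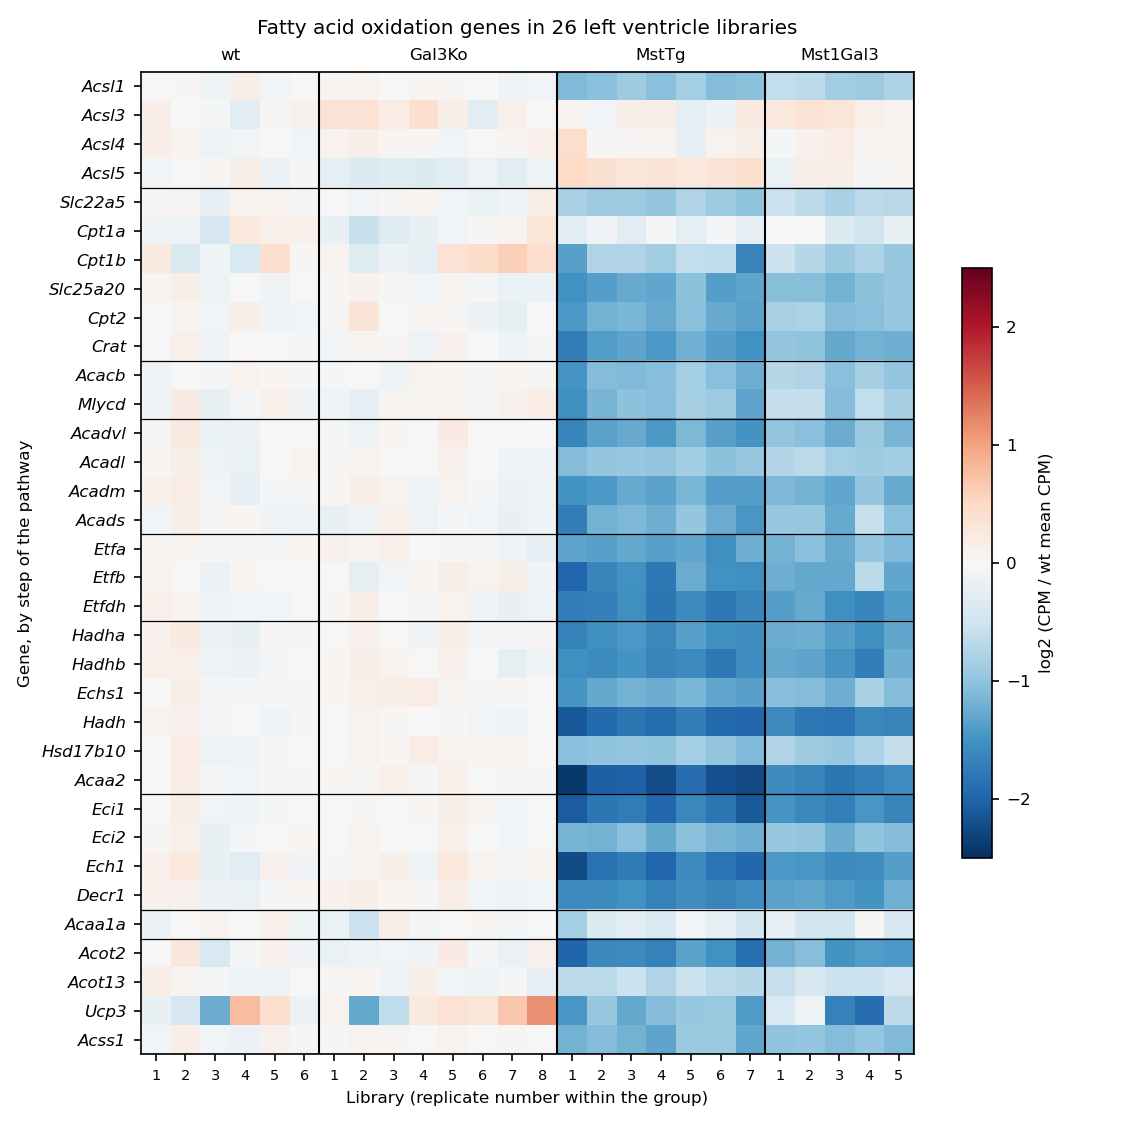
Level of the 34 genes (rows, grouped by step of the pathway in the order of the text) in each of the 26 libraries (columns, by group and replicate number), as log2 of CPM over the wt mean CPM of the same gene. Most rows are blue in all 7 MstTg and all 5 Mst1Gal3 libraries and near white in wt and Gal3Ko. Acsl3, Acsl4, Acsl5 and Cpt1a are not, and Ucp3 varies within groups.

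The activating enzymes divided. Acsl1, which makes the acyl-CoA that the heart burns and was at 219 RPKM in wt (CPM per kilobase of transcript, the scale on which levels of different genes can be compared), fell. It had 793, 853 and 944 CPM (lowest, median and highest library) in wt, 396, 416 and 475 CPM in MstTg, 788, 860 and 913 CPM in Gal3Ko, and 556, 540, 470, 453 and 501 CPM in Mst1Gal3. The Mst-1 groups lay below both other groups without overlap, and the change in MstTg against wt was -1.001 ± 0.057 (log2, SE, edgeR adjusted p = 5.5e-16). Its relative Acsl5, linked in other tissues to storage lipid as well as oxidation, was far lower, at 3.67 RPKM in wt, and moved the other way. Acsl5 had 14.03, 15.55 and 17.2 CPM in wt and 18.8, 19.6 and 22.1 CPM in MstTg, without overlap, and rose by 0.37 ± 0.06 (edgeR adjusted p = 5.5e-06). Acsl3 (1.53 RPKM in wt), which works at lipid droplets, and Acsl4 (3.20 RPKM), which prefers arachidonic acid, were at 0.03 ± 0.10 and 0.09 ± 0.07 (edgeR adjusted p = 0.833 and 0.275). Both were called higher when libraries were scaled to their totals (0.28 and 0.34) or to the cardiomyocyte markers (0.48 and 0.55), scalings that moved the median of all genes from 0.02 to 0.27 and 0.47.

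In carnitine uptake and the carnitine shuttle 5 of 6 genes fell. Crat, which moves acetyl and other short groups between CoA and carnitine, had 418, 442 and 484 CPM in wt and 132, 169 and 194 CPM in MstTg, a change of -1.42 ± 0.07 (edgeR adjusted p = 5.8e-18). Slc25a20, the carrier that swaps acylcarnitine for carnitine across the inner membrane, went from 120 CPM ± 8.31 (SD, n = 6) to 48.5 CPM ± 5.15 (n = 7), and Cpt2, which remakes acyl-CoA in the matrix, from 179 ± 11.5 to 75.8 ± 6.82 CPM. Their changes were -1.30 ± 0.06 and -1.24 ± 0.07 (log2, SE). Slc22a5, the plasma membrane carnitine transporter, fell by 0.89 ± 0.06, from 22.6 ± 1.69 to 12.2 ± 0.725 CPM. All 4 had no overlap between wt and MstTg.

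The rate-controlling transferase has a muscle form, Cpt1b, and a liver form, Cpt1a. Cpt1b fell by 0.91 ± 0.17 on the log2 scale (edgeR adjusted p = 3.3e-05), from 4.85, 6.19 and 8.503 CPM in wt to 1.998, 3.76 and 4.15 CPM in MstTg. Of its exon bases 81.4% are shared with an overlapping gene model on the same strand, Gm44502, which is not among the genes of the table. The sources used here do not say how reads in shared bases were counted, so the level of Cpt1b is uncertain. It is not compared with that of other genes, except within the correlation of level and change given further down. Cpt1a had 48.2, 65.4 and 77.6 CPM in wt and 53.0, 55.8 and 62.3 CPM in MstTg, with overlap, and its change of -0.16 ± 0.11 did not pass the test (edgeR adjusted p = 0.219, 95% interval -0.39 to 0.06). Its sign was positive under scaling to library totals (0.08) or to cardiomyocyte markers (0.28).

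Both genes of malonyl-CoA control, the brake on the transferase, fell to a similar degree. Acacb, the acetyl-CoA carboxylase that makes malonyl-CoA at the mitochondrial surface, had 591, 617 and 667 CPM in wt and 226, 293 and 346 CPM in MstTg. Mlycd, the decarboxylase that removes malonyl-CoA, had 79.1, 86.6 and 104 CPM in wt and 30.9, 42.7 and 50.4 CPM in MstTg. The groups did not overlap for either gene, and the changes were -1.11 ± 0.07 and -1.10 ± 0.09 (edgeR adjusted p = 3.6e-15 and 1.3e-11).

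All 4 acyl-CoA dehydrogenases, which open each turn, fell without overlap. Acadvl, for very long chains on the inner membrane, went from 732 ± 72.7 CPM (SD, n = 6) to 283 ± 32.2 CPM (n = 7), a change of -1.37 ± 0.07. Of its exon bases 42.9% overlap Dvl2 on the opposite strand, and the sources used here do not state the strand setting of the counting. Acadm, for medium chains, went from 813 ± 79.4 to 321 ± 26.8 CPM (-1.34 ± 0.07), and Acads, for short chains, from 158 ± 10.9 to 66.0 ± 10.6 CPM (-1.26 ± 0.09). Acadl, the long-chain form, changed least of the 4, by -0.97 ± 0.05, from 693 ± 60.4 to 354 ± 16.9 CPM. The 95% intervals of Acadl (-1.08 to -0.86) and Acadm (-1.48 to -1.20) did not meet.

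Electrons of these dehydrogenases pass through the flavoprotein of Etfa and Etfb to ubiquinone by way of Etfdh, and all 3 genes fell. Etfdh had 471, 498 and 555 CPM in wt and 145, 154 and 174 CPM in MstTg, so the highest MstTg library was far below the lowest wt library. Its change was -1.68 ± 0.06 (edgeR adjusted p = 2.2e-20). Etfa fell by 1.33 ± 0.06, from 319 ± 13.0 to 127 ± 8.58 CPM, and Etfb by 1.58 ± 0.10, from 25.3 ± 1.30 to 8.43 ± 1.37 CPM. Etfb shares 53.0% of its exon bases with the same-strand model Gm45233, which is not among the genes of the table, so its level is not compared with that of Etfa.

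The 2 largest falls were those of Acaa2 and Hadh, in the later steps of the turn. Acaa2, the thiolase that cleaves off acetyl-CoA from medium chains (chromosome 18, GRCm38), had 577, 584 and 680 CPM in wt, 112, 131 and 160 CPM in MstTg, 580, 606 and 659 CPM in Gal3Ko, and 203, 190, 169, 183 and 206 CPM in Mst1Gal3. Every MstTg library was below every Mst1Gal3 library, and both groups were far below the others. Its change in MstTg against wt, -2.14 ± 0.07 (edgeR adjusted p = 3.4e-22), was the largest of the 34. Hadh, the hydroxyacyl-CoA dehydrogenase of medium and short chains, had 443, 467 and 518 CPM in wt and 109, 125 and 144 CPM in MstTg, a change of -1.92 ± 0.06. Echs1, the short-chain hydratase, fell by 1.28 ± 0.06, from 224 ± 11.3 to 92.3 ± 6.88 CPM. Hsd17b10, a dehydrogenase that also serves isoleucine breakdown and mitochondrial tRNA processing, fell by 0.99 ± 0.06, from 65.2 ± 5.33 to 32.7 ± 1.74 CPM.

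Hadha and Hadhb encode the 2 subunits of the trifunctional protein, which carries out the last 3 reactions on long chains, and their starts flank the 85-base interval printed above. Hadha had 1116, 1256 and 1474 CPM in wt and 392, 436 and 495 CPM in MstTg. Hadhb had 564, 621 and 689 CPM in wt and 181, 209 and 222 CPM in MstTg. Their changes were -1.53 ± 0.07 and -1.60 ± 0.07 (edgeR adjusted p = 1.1e-18 and 2.0e-18). The log2 ratio of Hadha to Hadhb was 1.01 ± 0.07 (SD, n = 6) in wt, 1.08 ± 0.14 (n = 7) in MstTg, 1.02 ± 0.11 (n = 8) in Gal3Ko and 1.08 ± 0.10 (n = 5) in Mst1Gal3. No difference of this ratio was found between MstTg and wt (0.07, exact permutation p = 0.276, 0.358 adjusted over 12 ratio tests).

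The enzymes for unsaturated chains fell as a group of 4. Ech1, the dienoyl-CoA isomerase and the most abundant of the 34 per length (630 RPKM in wt), had 657, 807 and 952 CPM in wt and 169, 219 and 267 CPM in MstTg, a change of -1.88 ± 0.09. Eci1, the enoyl-CoA isomerase, fell by 1.86 ± 0.07, from 162 ± 10.9 to 44.6 ± 5.58 CPM, and Decr1, the dienoyl-CoA reductase, by 1.58 ± 0.06, from 289 ± 25.1 to 96.4 ± 4.32 CPM. Eci2, an isomerase of both mitochondria and peroxisomes, fell by 1.16 ± 0.05, from 96.3 ± 6.71 to 43.2 ± 2.71 CPM. The groups did not overlap for any of the 4.

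The remaining 5 genes stand beside the spiral. Acot2, a matrix thioesterase that frees fatty acids from CoA, fell by 1.65 ± 0.10, from 69.7 ± 10.5 to 22.2 ± 3.35 CPM. Acss1, which activates acetate in the matrix, fell by 1.12 ± 0.06, from 303 ± 25.6 to 139 ± 15.4 CPM. Acot13, a small thioesterase, fell less, by 0.65 ± 0.05, from 116 ± 8.34 to 73.7 ± 4.28 CPM. The mildest fall was that of Acaa1a, the peroxisomal thiolase, at -0.35 ± 0.10 (edgeR adjusted p = 0.00402), from 35.3 ± 2.61 to 27.6 ± 4.36 CPM, with overlap, and the call was lost under scaling to library totals (-0.11) and the sign changed under scaling to cardiomyocyte markers (0.08). Acaa1a and Acot2 each have a near-identical relative, Acaa1b and Acot1, so reads shared between copies leave their values uncertain. Ucp3, an inner membrane carrier that accompanies fatty acid oxidation, had 18.8, 39.9 and 76.3 CPM in wt and 16.3, 21.1 and 23.3 CPM in MstTg, and its change was -1.14 ± 0.35 (edgeR adjusted p = 0.0075). Under scaling to cardiomyocyte markers that call was lost (-0.71, adjusted p = 0.0724).

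By chain length, 8 of 9 long-chain genes fell (median -1.24, range -1.60 to -0.16) and 6 of 6 medium- and short-chain genes (median -1.31, range -2.14 to -0.99). The long-chain list holds Acsl1, Cpt1a, Cpt1b, Slc25a20, Cpt2, Acadvl, Acadl, Hadha and Hadhb. The other list holds Acadm, Acads, Echs1, Hadh, Acaa2 and Hsd17b10. Only the long-chain list includes activation and the carnitine shuttle, so the lists differ by step as well as by chain length. By step the median was 0.06 for activation, -1.07 for carnitine uptake and shuttle, -1.11 for malonyl-CoA control, -1.30 for the dehydrogenases, -1.58 for electron transfer, -1.56 for hydration to thiolysis and -1.72 for the unsaturated-chain enzymes. Genes of higher wt level tended to fall more. Across the 34, log2 wt RPKM and the change had Pearson r = -0.74 and Spearman rho = -0.64. The low end holds Acsl3, Acsl4 and Acsl5 (1.53, 3.20 and 3.67 RPKM), which were not called lower. Cpt1b and Etfb, whose levels are uncertain, are among the 34. The correlation is a description across genes, which are not independent replicates, and the same wt libraries enter both measures.

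**Figure D2:**
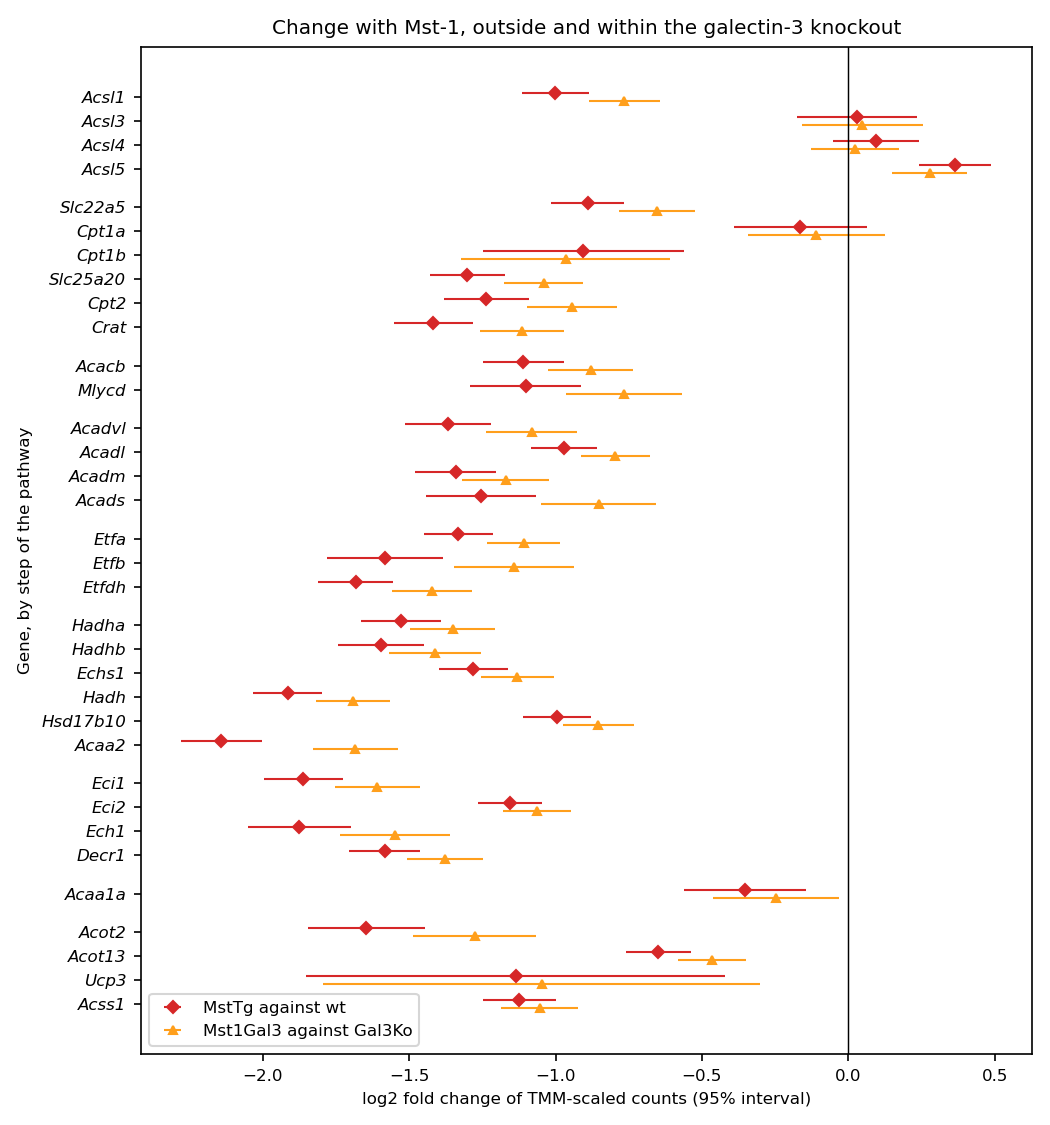
Change with Mst-1 for each of the 34 genes (rows, by step) on the log2 scale, in MstTg against wt (diamonds) and Mst1Gal3 against Gal3Ko (triangles), with 95% intervals. The triangle lies to the right of the diamond in 31 of 34 genes, and Acsl3, Acsl4 and Cpt1a have intervals that include 0 in both.

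The Mst-1 effect was measured again in libraries of the other 2 groups. In Mst1Gal3 against Gal3Ko 30 genes fell, 1 rose and 3 did not pass the test, where over all genes 25.6% fell and 26.9% rose. The same 31 genes were called, each in the same direction, and the comparisons share no library. The median was -1.05 (0.01 over all genes), and 28 genes were lower without overlap (14.5% of all genes) and none higher (16.5%). The changes ran from -1.69 ± 0.06 for Hadh and -1.68 ± 0.07 for Acaa2 to 0.28 ± 0.06 for Acsl5. Etfb, Crat and Acads changed by -1.14 ± 0.10, -1.12 ± 0.07 and -0.85 ± 0.10. The 30 genes stood in Mst1Gal3 at 31.0 to 84.4% of their level in Gal3Ko, with a median of 47.6%, and the whole set took 0.610 to 0.681% of the counts outside the mitochondrial genome in Mst1Gal3, against 1.42 to 1.56% in Gal3Ko. Across the 34 genes the 2 sets of changes had Pearson r = 0.98 and Spearman rho = 0.96, where all genes had r = 0.94. The calls of Acaa1a (-0.25 ± 0.10, edgeR adjusted p = 0.0484) and Ucp3 (-1.05 ± 0.36, 0.0177) were the least firm: that of Acaa1a was lost in 20 of the 26 fits without 1 library, and that of Ucp3 without Mst1Gal3 replicate 3 or 4 (highest adjusted p 0.0572). Both calls were also lost under library totals (-0.02 and -0.83, adjusted p = 0.900 and 0.057), the replicate block (-0.23 and -0.76, 0.0797 and 0.091), the compared groups only (-0.23 and -1.03, 0.0618 and 0.0595), without the libraries of high atrial markers (-0.17 and -0.61, 0.270 and 0.245) and under scaling to cardiomyocyte markers (0.05 and -0.74, 0.665 and 0.0814), and that of Acaa1a with a minimum mean of 1 CPM (-0.24, 0.0507).

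Under Mst-1, galectin-3 loss went with a small rise of part of the program. In Mst1Gal3 against MstTg 18 of 34 genes rose, 1 fell and 15 did not pass the test, where over all genes 2.54% rose and 2.35% fell. The median was 0.23 (0.02 over all genes) and 31 of 34 estimates were above 0, as were 8315 of all 15249. All 18 are among the 30 genes that fell in MstTg against wt, and both comparisons use the MstTg libraries. Acaa2 rose the most, by 0.48 ± 0.07 (edgeR adjusted p = 2.8e-05), to 140% of its MstTg level, where wt was at 601 ± 39.8 CPM and Mst1Gal3 at 190 ± 15.2 CPM. Only Acaa2 and Decr1 were higher in every Mst1Gal3 library than in every MstTg library, which holds for 1.31% of all genes, and Acsl5 was lower in every one, which holds for 2.0%.

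The genes that rose came from most steps. In electron transfer all 3 rose, Etfb by 0.45 ± 0.10, Etfdh by 0.24 ± 0.07 and Etfa by 0.23 ± 0.06 (edgeR adjusted p = 0.0068, 0.0223 and 0.022). Both genes of malonyl-CoA control rose, Mlycd by 0.37 ± 0.10 and Acacb by 0.25 ± 0.07. In the carnitine step 4 of 6 rose, from 0.22 ± 0.07 for Slc22a5 through 0.24 ± 0.07 for Slc25a20 and 0.29 ± 0.07 for Crat to 0.31 ± 0.08 for Cpt2. Of the unsaturated-chain enzymes Ech1 (0.39 ± 0.09), Eci1 (0.29 ± 0.07) and Decr1 (0.24 ± 0.06) rose. Of hydration to thiolysis Acaa2, Echs1 (0.24 ± 0.06), Hadh (0.22 ± 0.06) and Hsd17b10 (0.20 ± 0.06) rose, while Hadha and Hadhb, both at 0.20, did not pass the test. Of the dehydrogenases only Acadvl passed it (0.30 ± 0.08, edgeR adjusted p = 0.0139), and of the activating enzymes Acsl1 rose (0.24 ± 0.06) and Acsl5 fell by 0.33 ± 0.06 (edgeR adjusted p = 0.00119). None of the 4 genes of the group of thioesterases, uncoupling and acetate passed it. By chain length 4 of 9 long-chain genes (median 0.20) and 4 of 6 medium- and short-chain genes (median 0.23) rose, in the same lists, which also differ by step.

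These rises were small, and their number depended on the scaling and on single libraries. It was 4 under library totals, 11 under totals without mitochondrial genes and 7 when only MstTg and Mst1Gal3 were fitted, where 0.892%, 1.55% and 1.72% of all genes were called higher. Without Mst1Gal3 replicate 1 it was 6, without replicate 2 it was 9 and without replicate 4 it was 9. The share of all genes called higher in those fits is not given here, so these counts cannot be set against it. None of the 18 calls was lost with DESeq2, limma-voom or without the libraries of high atrial markers. Those 3 fits called 3.02%, 2.64% and 4.24% of all genes higher. Without the libraries of high atrial markers the median of the 34 was 0.28 (0.02 over all genes). Cardiomyocyte markers moved the same way in this comparison, 2 of 11 rising (Ryr2 and Myh6) with a list median of 0.14, at summed levels of 49087 to 61549 CPM in Mst1Gal3 and 40070 to 54214 CPM in MstTg. With libraries scaled to those markers 2 genes rose (Acaa2 and Etfb), Acsl5 still fell and the median of the 34 was 0.06, where the median of all genes was -0.15, with 0.63% higher and 11.8% lower. No fibroblast marker passed the test, with sums of 1851 to 2193 CPM in Mst1Gal3. The call of Etfb was lost without Mst1Gal3 replicate 4 (0.32, adjusted p = 0.0535) and with the compared groups only (0.44, adjusted p = 0.051).

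**Figure D3:**
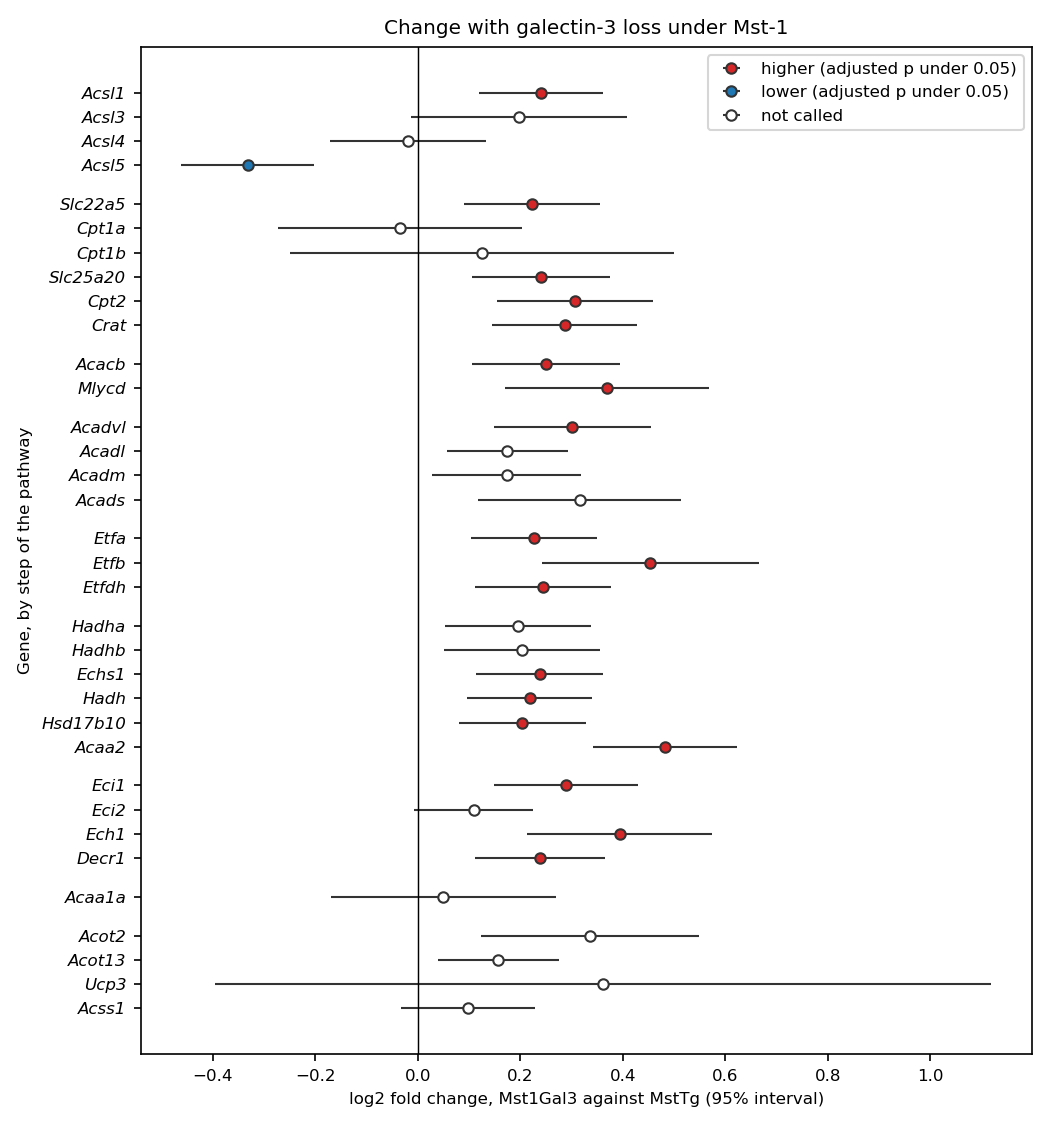
Change in Mst1Gal3 against MstTg for each of the 34 genes (rows, by step) on the log2 scale with 95% intervals. Filled red points are the 18 genes called higher, the blue point is Acsl5, called lower, and open points did not pass the test. Nearly all points lie between 0 and 0.5.

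Whether the Mst-1 effect differs with galectin-3 loss was tested by the interaction, which is the change in Mst1Gal3 against Gal3Ko less that in MstTg against wt. Only Acaa2 passed, with 0.46 ± 0.09 (edgeR adjusted p = 0.0159), where 0.289% of all genes passed in that direction and 0.367% in the other. The next smallest p-values were those of Etfb (0.44 ± 0.14, edgeR adjusted p = 0.149), Crat (0.30 ± 0.09, 0.152) and Acads (0.40 ± 0.13, 0.166). The estimate was above 0 in 31 of 34 genes and in 8012 of all 15249, with a median of 0.21 (0.01 over all genes). Of the 34, 20 had an unadjusted p under 0.05. The share of all genes at that level was not counted, so no broader interaction is read from the 20. The interaction uses the same Mst1Gal3 and MstTg libraries as the comparison above, so it does not stand apart from it. The call of Acaa2 was lost with the replicate number as a block (0.41, adjusted p = 0.0578) and under scaling to cardiomyocyte markers (0.33, adjusted p = 0.0956), and it held in all 26 fits without 1 library. Without MstTg replicate 5 the number of genes that passed was 3, and the share of all genes that passed in that fit is not given here.

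Outside the Mst-1 background no member passed the test. In the libraries labelled Gal3Ko against wt 0 of 34 genes were called, where 0.177% of all genes were lower and 0.177% higher. With an unadjusted p under 0.05 there was 1 gene, Acsl5, and DESeq2 called 1, the same gene. No member separated the groups without overlap (0.151% lower and 0.138% higher over all genes). The median was 0.01 and the estimates ran from -0.25 for Acsl5 to 0.27 for Ucp3. Acsl5 had 12.3, 12.9 and 14.4 CPM in Gal3Ko, against 14.03, 15.55 and 17.2 CPM in wt, a change of -0.25 ± 0.06 (edgeR adjusted p = 0.0718), and it was called without wt replicate 5 (adjusted p = 0.0322). The next smallest p-values were those of Acsl3 (0.18 ± 0.10), Echs1 (0.09 ± 0.06) and Cpt1b (0.19 ± 0.16), with edgeR adjusted p = 0.809, 0.870 and 0.928.

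**Figure D4:**
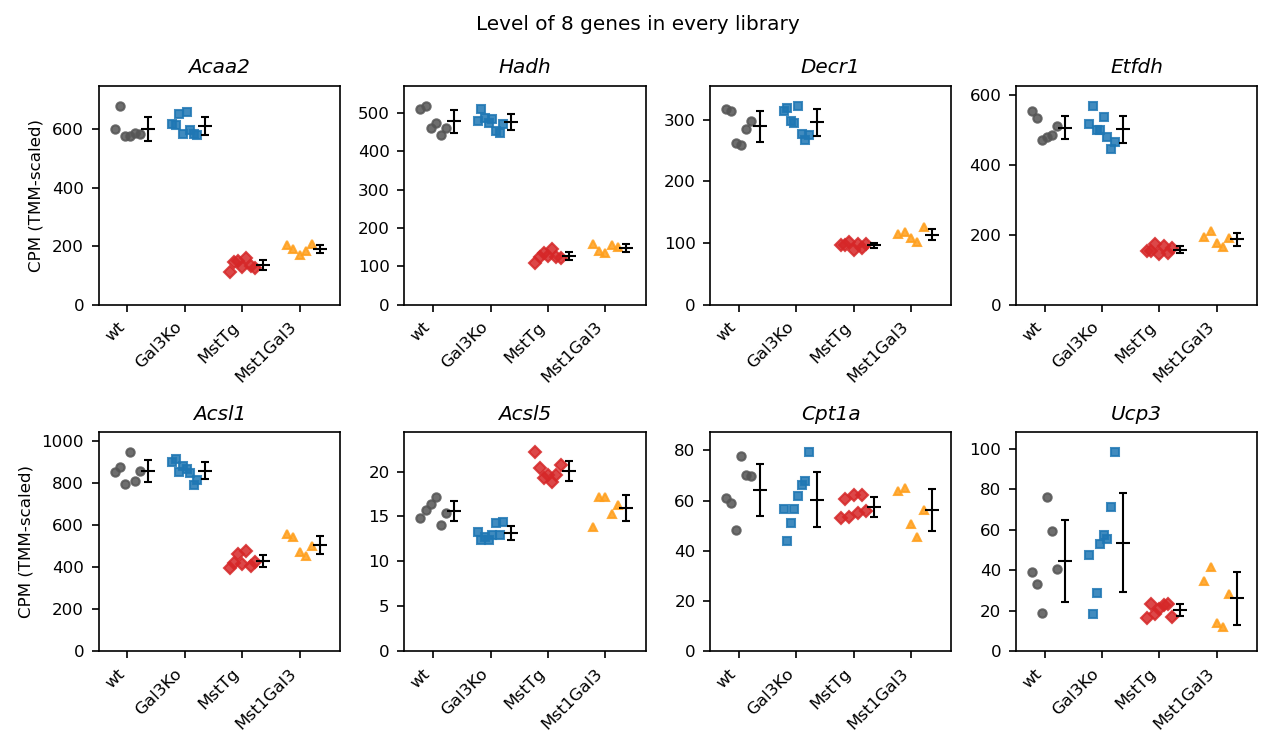
CPM of 8 genes in each library (points, by group), with the group mean and SD in black beside them; each axis starts at 0. Acaa2, Hadh, Decr1, Etfdh and Acsl1 fall into a high pair of groups and a low pair, Acsl5 is highest in MstTg, Cpt1a overlaps in all groups, and Ucp3 spreads from 18.3 to 98.3 CPM within Gal3Ko.

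Pairs of related genes were compared as log2 ratios of CPM within each library, over 12 exact permutation tests. Acsl1 over Acsl5 was 5.77 ± 0.09 (SD, n = 6) in wt, 4.41 ± 0.16 (n = 7) in MstTg, 6.03 ± 0.13 (n = 8) in Gal3Ko and 4.98 ± 0.21 (n = 5) in Mst1Gal3. The ratio was lower in MstTg than in wt by 1.37 (adjusted exact permutation p = 0.00622) and lower in Mst1Gal3 than in Gal3Ko (-1.04, adjusted exact p = 0.00622). It was higher in Mst1Gal3 than in MstTg (0.57, adjusted exact p = 0.00758). The groups did not overlap in this ratio in any of the 3 comparisons, so each unadjusted p is the smallest its group sizes allow. In MstTg against wt both genes separated the groups in opposite directions, so the ratio had to separate them and adds no support. Cpt1a over Cpt1b was higher in MstTg than in wt (0.76, adjusted exact p = 0.0140) and in Mst1Gal3 than in Gal3Ko (0.83, adjusted exact p = 0.00622). No such difference was found between Mst1Gal3 and MstTg (-0.21, adjusted exact p = 0.358). Etfa over Etfb did not pass in any of the 3 comparisons: the difference was 0.27 in MstTg against wt, 0.05 in Mst1Gal3 against Gal3Ko and -0.23 in Mst1Gal3 against MstTg (adjusted exact p = 0.0513, 0.763 and 0.212). The ratios with Cpt1b and Etfb rest on counts in exon bases shared with other gene models, so they are read only as changes between groups, and no share of the pair is drawn from them.

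Within groups most of the 34 genes varied together. After each library's log2 CPM was set against its group mean, the median Pearson r over the 561 pairs of members was 0.35 across 26 libraries, and 0.0048 between members and all genes; members share the scaling factor of each library, and no test is given. Acsl3, Acsl4, Acsl5 and Cpt1a had negative median r with the other members (-0.12, -0.35, -0.35 and -0.074). Acadvl had the highest (0.62).

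Ucp3 stood out by its spread. Its SD was 45.5% of its mean in wt, 45.8% in Gal3Ko, 15.2% in MstTg and 49.7% in Mst1Gal3. In Gal3Ko its libraries ran from 18.3 to 98.3 CPM, and in Mst1Gal3 they were 34.5, 41.8, 13.9, 12.0 and 28.3 CPM. Over the 26 deviations from group means Ucp3 and Cpt1a had r = 0.95 and rho = 0.93 (permutation p = 1e-05 for each within groups, the smallest that 100000 permutations can give; 3e-05 and 2.25e-05 adjusted over 9 relations). Cpt1a, like Cpt1b and Acot2, was set beside Ucp3 after its values were seen, so its p-value is no independent test. Without the 2 libraries farthest from the median r was 0.91, and within wt, MstTg, Gal3Ko and Mst1Gal3 it was 0.96, 0.69, 0.97 and 0.97.

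The same libraries were high or low in some of the PPAR targets outside beta-oxidation. Ucp3 had r = 0.92 and rho = 0.89 with Pdk4, the kinase that shuts off pyruvate oxidation, r = 0.88 and rho = 0.87 with Angptl4, an inhibitor of lipoprotein lipase, and r = 0.87 and rho = 0.88 with Txnip, a brake on glucose uptake. Their adjusted permutation p-values were 3e-05, 4.5e-05 and 3e-05 for r, and r was 0.91, 0.83 and 0.79 without the 2 farthest libraries. With Cpt1b it was lower (r = 0.47, rho = 0.53, adjusted permutation p = 0.0142 and 0.0099), as with Acot2 (r = 0.50, rho = 0.52, adjusted permutation p = 0.0126 and 0.0134). With Slc25a42 (r = 0.42, rho = 0.48) and Pdk2 (r = 0.0033, rho = 0.12) the adjusted permutation p for r was 0.0589 and 0.987, and for rho 0.0267 and 0.568. Within wt, MstTg, Gal3Ko and Mst1Gal3 r with Pdk2 was 0.02, 0.89, -0.82 and 0.66. Pdk4, Angptl4 and Txnip did not pass the test in MstTg against wt (0.28 ± 0.32, -0.70 ± 0.50 and -0.30 ± 0.27, edgeR adjusted p = 0.488, 0.248 and 0.370). The sources used here name neither the feeding state of the mice nor the time of collection, and their part was not tested.

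**Figure D5:**
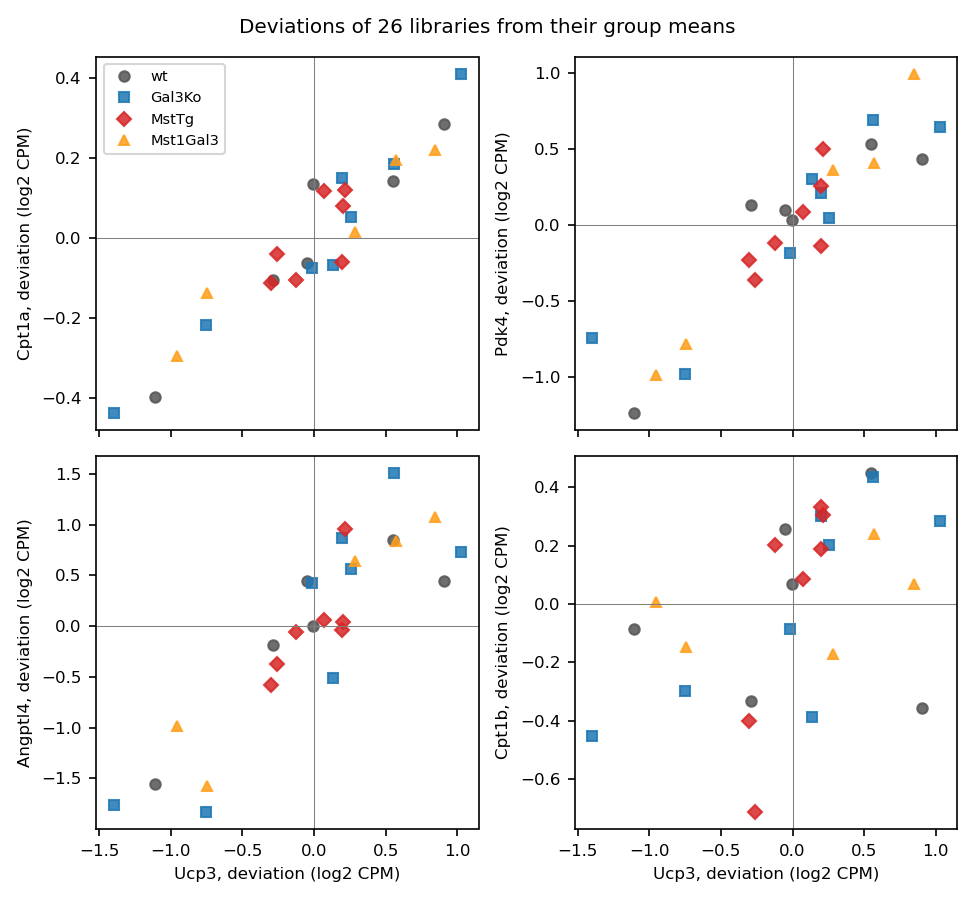
Deviation of each of the 26 libraries from its group mean in log2 CPM, Ucp3 on the x axis and Cpt1a, Pdk4, Angptl4 or Cpt1b on the y axis. Points of all 4 groups follow 1 line for Cpt1a (r = 0.95) and Pdk4 (r = 0.92), and scatter more for Cpt1b (r = 0.47).

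Genes around the pathway were counted in MstTg against wt from lists by function, where 26.8% of all genes fell and 28.2% rose. In uptake and trafficking 9 of 11 fell and 1 rose. The fatty acid translocase Cd36 fell by 1.05 ± 0.07 (1415 ± 109 to 682 ± 58.3 CPM), lipoprotein lipase Lpl by 0.96 ± 0.08 and Got2, also a membrane fatty acid binding protein, by 0.68 ± 0.06. The gene that rose, named after its value was seen, was the transporter Slc27a6, from 0.163 ± 0.105 to 1.43 ± 0.491 CPM (3.10 ± 0.31). In lipid droplets and lipolysis 10 of 11 fell, among them the triglyceride synthase Dgat2 (-1.86 ± 0.08), the droplet coat protein Plin5 (-1.67 ± 0.12) and the lipase Mgll (-0.96 ± 0.08). In peroxisomal oxidation 13 of 17 fell with a median of -0.62, among them Phyh of alpha-oxidation by 1.14 ± 0.06, Hsd17b4 by 0.83 ± 0.05 and the transporter Abcd3 by 0.71 ± 0.05.

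Of 19 other dehydrogenases, synthetases and thioesterases of acyl-CoA 16 fell and 1 rose (Acot9, by 0.81 ± 0.06, named after its value was seen). Gcdh of lysine breakdown fell by 1.47 ± 0.06, Ivd of leucine breakdown by 1.45 ± 0.06 and the acetoacetyl-CoA thiolase Acat1 by 1.29 ± 0.05. In acetyl-CoA use and ketone oxidation 12 of 14 fell, with the citric acid cycle genes Sdha at -1.26 ± 0.05, Suclg1 at -1.21 ± 0.05 and Idh3b at -1.16 ± 0.05. The median of this list, -1.05, was near that of the 34.

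Of 19 PPAR, ERR and PGC-1 regulators and partners 15 fell and 1 rose, with a median of -0.35. Ppara, the receptor itself, fell by 1.19 ± 0.08 (57.1 ± 4.19 to 25.0 ± 2.60 CPM), Ppargc1a, which encodes PGC-1α, by 1.07 ± 0.08 (138 ± 13.7 to 65.7 ± 6.90 CPM) and Rxrg, a partner receptor, by 1.72 ± 0.08 (51.0 ± 2.38 to 15.5 ± 1.71 CPM). The corepressor Nrip1 was the gene that rose, by 0.42 ± 0.08, and is named after its value was seen. In Mst1Gal3 against MstTg Rxrg rose by 0.46 ± 0.08 (edgeR adjusted p = 4.6e-04), while Ppara was at 0.01 ± 0.09 and Ppargc1a at 0.11 ± 0.08 (edgeR adjusted p = 0.964 and 0.533). Of 10 PPAR targets outside beta-oxidation 6 were measured, and 3 fell in MstTg against wt, where 26.8% of all genes did. Among them were Slc25a42, a mitochondrial CoA carrier (-1.27 ± 0.08), and the pyruvate dehydrogenase kinase Pdk2 (-0.88 ± 0.07). In Mst1Gal3 against MstTg the 7 lists had 2 of 11, 2 of 11, 2 of 17, 3 of 19, 3 of 14, 1 of 19 and 1 of 6 genes higher in the order given here, and none lower, where 2.54% of all genes were higher and 2.35% lower.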

How the data were processed

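RNA of the left ventricle was measured in 26 libraries. Per the labels' protocols, total RNA was depleted of ribosomal RNA and made into directional libraries. Per the submitters' processing notes, the tools were bcl2fastq 2.19.1.403, STAR and featureCounts with the build GRCm38. The sources used here give no version for the last 2, no strand setting and no handling of reads in overlapping genes or with several mapping positions. The deposited table holds raw counts per gene, not normalized by the authors, and no gene in it has a mean count under 10. Groups come from the sample titles. Replicate pairs differed by a chi-square of at least 4.97 per degree of freedom, so no library was counted as a duplicate.

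The members, the lists and the rule for named genes were chosen with earlier results of these data known. Counts were tested with edgeR 4.0.16 in R 4.3.3: TMM factors, filterByExpr (which removed 0 genes), robust quasi-likelihood, two-sided, all 26 libraries in 1 fit with 22 residual degrees of freedom. Biological coefficient of variation was 0.114. Adjustment was over 15249 genes. CPM use TMM-scaled library sizes, log2 CPM a prior count of 0.5, and RPKM the longest principal coding transcript of GENCODE M21 on GRCm38. The fitting code was also run on simulated counts with the same spread for every gene, unlike these data, and no result here rests on that run. Every member was named in MstTg against wt, called members or the 4 of smallest p elsewhere, and 3 genes of smallest p per list. The values of 1 gene of these lists are not reported here. Cpt1a, Cpt1b and Acot2 were added to the Ucp3 relations after their values were seen. Alternatives were library totals with and without mitochondrial genes, 2 filters on low counts, DESeq2 1.42.0, limma-voom 3.58.1, the compared groups only, a replicate block, no libraries of high atrial markers, each library left out, and scaling to cardiomyocyte markers, the last added after the data were seen.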

Additional observations from a re-analysis of the deposited data

Results flagged for a closer look

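In 5 of 136 combinations of a member and a group 1 library stood apart from the others, where chance gives about 1 in 20. Acaa2 was at 680.3 CPM in wt replicate 2, with the next library at 602.4 CPM, and Echs1 was at 246.9 CPM in the same library, next to 221.5 CPM. In Gal3Ko, Cpt2 was at 223.1 CPM in replicate 2 (next 183.8 CPM) and Acads at 172 CPM in replicate 3 (next 153.3 CPM). In Mst1Gal3 replicate 4, Etfb was at 15.85 CPM, where the other 4 libraries were at 10.32 to 10.94 CPM. The Mst-1 effect on Acaa2 differed with galectin-3 loss by the test of the interaction, with an estimate of 0.4578 on the log2 scale.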

How the results depend on the processing

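The fall of the members was stable: 30 were lower in MstTg against wt in each of the 26 fits without 1 library and 28 to 30 under the other alternatives, and in Mst1Gal3 against Gal3Ko 28 to 30 under all of them. The number higher in those 2 comparisons was 3 and 3, in place of 1 and 1, under library totals and again under scaling to cardiomyocyte markers. Members higher in Mst1Gal3 against MstTg, 18 as reported, were 4 under library totals, 11 under totals without mitochondrial genes, 11 with the replicate block, 7 with the compared groups only, 2 under scaling to cardiomyocyte markers, and 6 to 22 without 1 library. In the interaction 1 member was higher, 0 with the replicate block or cardiomyocyte scaling, and 1 to 3 without 1 library. In Gal3Ko against wt 1 member was lower in DESeq2, and 0 to 1 without 1 library. The shares of all genes called in the fits without 1 library are not given here. The causes were not tested.

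The sign of Acaa1a became positive under cardiomyocyte scaling (0.0781 in MstTg against wt, 0.0483 in Mst1Gal3 against Gal3Ko). For Cpt1a in MstTg against wt it became positive under library totals (0.0825) and cardiomyocyte scaling (0.2799). Acsl3 there was at -0.0017 with the compared groups only, and at -0.0188 to 0.0711 without 1 library. Library totals called 7789 genes higher and 2166 lower in MstTg against wt, in place of 4302 and 4083, and cardiomyocyte scaling 10393 and 1422. In Mst1Gal3 against MstTg cardiomyocyte scaling called 96 higher and 1793 lower, in place of 387 and 359.

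Libraries of the same number correlated at -0.28 to 0.234 (median 0.0069, 34 pairs), and those of other numbers had a median of -0.00026 (217 pairs). These values cannot tell whether some of the numbers pair samples, and the labels do not say. The replicate block left 30 and 28 members lower in the 2 Mst-1 comparisons. Counting error limits the low genes most, Cpt1b and Acsl3 at a few CPM.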
